A study of Drosophila melanogaster with 9 samples.

Results

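Aminoacyl-tRNA synthetases are the enzymes that join each amino acid to the tRNA that reads its codons, so the ribosome receives correctly charged tRNA. Most eukaryotic cells carry a cytosolic enzyme for each amino acid and a second, nuclear-encoded enzyme that is imported into mitochondria, where the organelle's own ribosomes translate the mitochondrial messages. The enzymes fall into class I and class II by the fold of the catalytic domain. GluProRS joins a glutamyl and a prolyl enzyme in 1 polypeptide, and cytosolic phenylalanyl-tRNA synthetase is built from an alpha and a beta subunit. In humans, the GlyRS and LysRS genes each supply both compartments.

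The genes were chosen by FlyBase symbol alone, as an amino acid abbreviation followed by RS, with -m marking the mitochondrial enzyme. This naming rule reads no measured value, although the family was taken up with earlier results of these data known. It named 35 genes, 20 without -m, called cytosolic here, and 15 with it. The count lists held 33 of them, 19 cytosolic and 14 mitochondrial, among 17023 genes in all. LeuRS and PheRS-m could not be matched by their current identifiers and were not analysed here. GlnRS, GlyRS, HisRS, LysRS and ThrRS had no mitochondrial partner by symbol.

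Larp is an RNA-binding protein of the La-related family, known as a regulator of mRNAs of the translation machinery. Ovaries of larp::GFP::FLAG flies, dissected at 1 to 3 days after eclosion, gave 9 poly(A)-selected libraries, and every library carried this same genotype. Anti-FLAG IP (3 libraries) was RNA pulled down through the tag of Larp, IgG control (3 libraries) was RNA pulled down with mouse IgG, and input (3 libraries) was RNA from a 10% portion of lysate. No library came from flies without the tag. The labels do not say whether same-group libraries were separate groups of flies, so the p-values measure the spread between these libraries, which may be technical.

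The libraries held 11359561 to 13818619 counts in anti-FLAG IP, 11254129 to 17150422 in the IgG control and 12467353 to 12999177 in input. Ribosomal protein genes took 29.6% to 49.7% of the counts in anti-FLAG IP, 7.84% to 9.02% in the IgG control and, in input, 8.33% to 10.6%, with anti-FLAG IP replicate 3 at the low end of its group. Because of this difference, values are normalised read counts, which are counts scaled to a common library total (CPM) after TMM scaling, a method that sets the bulk of genes level between libraries. IgG control replicate 1 stood apart, with 82 genes at 0 counts that had at least 100 in the median library, against 0 to 8 such genes in the other libraries. Germline markers (osk, orb, bam and aub) summed to 1542 to 1805 normalised counts in anti-FLAG IP, 1490 to 2130 in the IgG control and 1659 to 1999 in input, while both testis markers were at 0 in every library. Most of each germline sum was osk and orb. The bam transcript alone had 14.8, 5.01 and 19.7 in anti-FLAG IP, 35.9, 11.2 and 22.4 in the IgG control and 37.3, 38.1 and 44.0 in input. Against input, 2 of the 4 had a log2 fold change above 0 and 2 below, and none was called. Also on the marker list, vas and nos could not be matched by symbol. Ovarian soma markers (tj, Fas3, Yp1, Yp2 and Yp3) summed to 6911 to 10784, 6568 to 7694 and 4015 to 7410 in the same order. Fat body markers summed to 21.7 to 173, 46.4 to 654 and 15.3 to 36.7, with 1 of the 3 at 0 in all libraries, and muscle markers to 103 to 265, 189 to 492 and 134 to 289. Most of each ovarian soma sum was Yp1, Yp2 and Yp3, while tj had 42.8 to 142 and Fas3 17.0 to 54.0 over all libraries. The ovarian soma sums therefore describe the Yp genes and do not measure the ovarian soma as a whole. The part of these markers in the results was not tested. In bulk samples, fewer cells of a type and less RNA per cell cannot be told apart.

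The level of each synthetase transcript in the ovary was read from the input libraries per length, as counts per kilobase of exon scaled to a common total (TPM). The cytosolic enzymes were the more abundant group. Their median level was 132 TPM (range 22.7 to 222), against 20.8 TPM (10.6 to 86.2) for the mitochondrial enzymes and 45.9 TPM for all genes tested. LysRS was highest at 222 ± 23.0 TPM, followed by ThrRS at 189 ± 28.9 and IleRS at 188 ± 17.1 (SD, n = 3 each). GluRS-m was lowest at 10.6 ± 1.06 TPM. In the order of levels, 15 cytosolic genes lay above the highest mitochondrial gene and 8 mitochondrial genes lay below the lowest cytosolic gene. Neighbours in the order mostly overlapped. Of 32 neighbouring pairs, 1 had all 3 libraries of the upper gene above all 3 of the lower, namely ValRS at 71.3 ± 17.6 TPM and TrpRS-m at 40.5 ± 11.5 TPM (SD, n = 3 each).

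**Figure D1:**
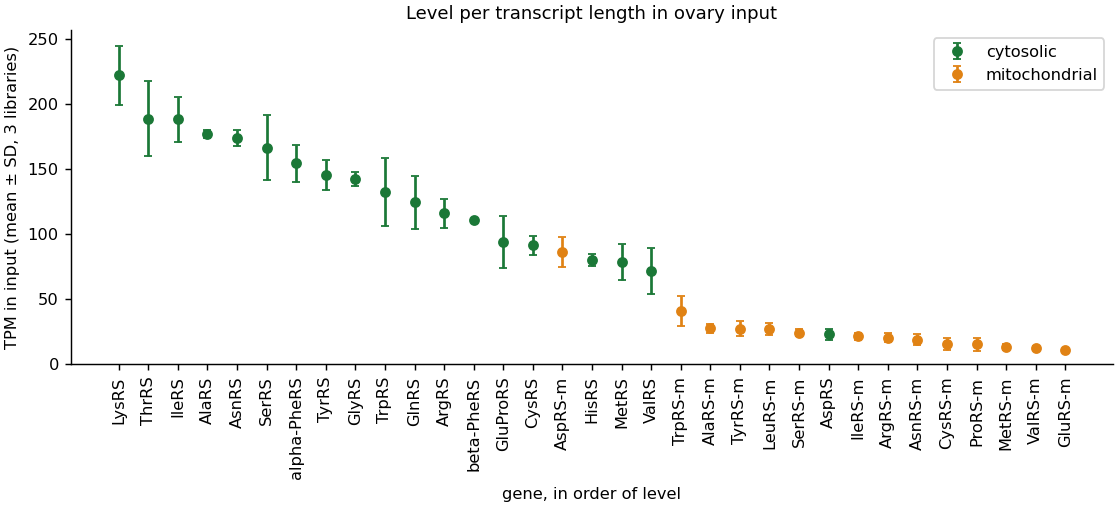
Level of 33 synthetase transcripts in ovary input, in TPM (mean and SD of 3 libraries), ordered from the highest to the lowest, cytosolic genes in green and mitochondrial genes in orange. LysRS is highest at 222 TPM, and AspRS-m and AspRS are out of place for their compartments at 86.2 and 22.7 TPM.

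For 13 amino acids both enzymes were measured, with GluProRS standing for glutamate and for proline. The cytosolic transcript was 3.26 to 9.34 times as abundant per length as the mitochondrial one for 12 of the 13. Aspartate was the exception, with AspRS at 22.7 ± 4.34 TPM and AspRS-m at 86.2 ± 11.2 TPM (SD, n = 3 each), a ratio of 0.26. The AspRS value is uncertain. In the annotation, 73.5% of the exon bases of AspRS also lie in exons of other genes, 69.5% on the other strand and 6.80% on its own, and the strand setting of the counting is not given in the sources used here. AspRS-m shared 0.656% of its exon bases. Shared exon bases were more common among mitochondrial genes, at 10 of 14, than among cytosolic genes, at 5 of 19, and counts of these genes are uncertain to that extent. The share exceeded 10% only in AspRS, ArgRS-m, CysRS-m and SerRS-m.

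Transcripts recovered with Larp were then sought by comparing anti-FLAG IP with input and with IgG control. TyrRS, the cytosolic enzyme that charges tyrosine tRNA, was higher in anti-FLAG IP in both comparisons, and it was the only 1 of the 33 synthetase transcripts to pass the threshold, an edgeR adjusted p-value under 0.05 with at least a 2-fold change. No synthetase transcript was called lower. Among all genes, 1.81% of 7574 were called higher against input and 0.251% lower, and against IgG control 1.63% of 7407 were called higher and 0.0135% lower. A count of 1 in 33 does not set the synthetases as a group apart from these shares, and the result is that of TyrRS alone.

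TyrRS (FBgn0027080, chromosome 3L, 16417349 to 16419302, minus strand in BDGP6.54) shared no exon base with another gene of the lists. It had 376, 453 and 417 normalised counts in anti-FLAG IP replicates 1 to 3, 68.8, 156 and 130 in the IgG control and 105, 113 and 107 in input. All 3 anti-FLAG IP libraries were above all 6 control libraries, while IgG control and input overlapped. These values rested on 2798 to 4571 raw counts in anti-FLAG IP, 1153 to 3254 in the IgG control and 1538 to 1810 in input. TyrRS averaged 415 ± 38.2 normalised counts in anti-FLAG IP, 118 ± 44.6 in the IgG control, with 108 ± 4.49 in input (SD, n = 3 each).

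Against input the log2 fold change of TyrRS was 1.96 ± 0.18 (SE), or 3.88-fold, with an edgeR adjusted p of 8.97e-05. Within same-numbered libraries the log2 ratio was 1.84, 1.99 and 1.96. Against IgG control it was 1.82 ± 0.27 (SE), or 3.52-fold, with an edgeR adjusted p of 0.000687, and 2.44, 1.54 and 1.67 within replicates. IgG control replicate 1 was the lowest library, and without it the log2 fold change was 1.55. In IgG control against input TyrRS had a log2 fold change of 0.14 ± 0.26 and did not pass (SE, edgeR adjusted p = 0.993). The 2 comparisons share the anti-FLAG IP libraries. With each library left out in turn, TyrRS passed in all 6 fits against input, at 1.88 to 2.01, and in all 6 against IgG control, at 1.55 to 2.08.

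**Figure D2:**
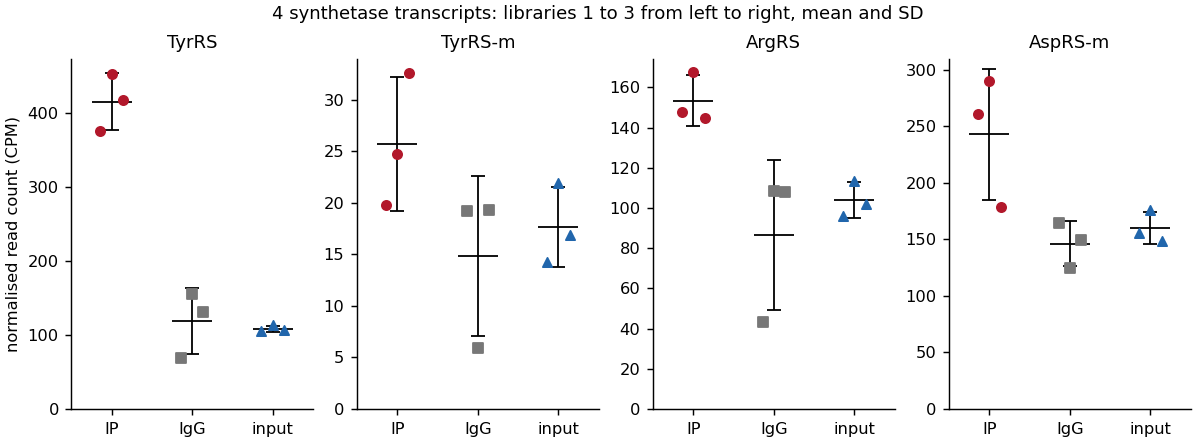
Normalised read counts (CPM after TMM scaling) of TyrRS, TyrRS-m, ArgRS and AspRS-m in anti-FLAG IP, IgG control and input, each point 1 library, with the mean and SD of 3. TyrRS lies at 376 to 453 in anti-FLAG IP and at 156 or below in every other library, while TyrRS-m overlaps between anti-FLAG IP and input.

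TyrRS was further set among the other transcripts recovered with Larp. Ribosomal protein genes, the main group, had 77 of 81 tested members called higher in each comparison, at median log2 fold changes of 3.08 (input) and 3.15 (IgG control). In each comparison 2 of the 77 had a smaller fold change than TyrRS. Outside the ribosomal protein genes, 60 genes were called higher against input and TyrRS ranked 25th of them by fold change. Against IgG control it ranked 25th of 44. It was 1 of 39 genes outside the ribosomal protein genes that were called in both comparisons. By unadjusted p-value TyrRS ranked 1st of all 7574 genes against input and 102nd of 7407 against IgG control.

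The size of the TyrRS change depended on scaling, as for every gene. With libraries scaled by total counts, the median gene lay at a log2 fold change of -0.87 against input (0.01 after TMM) and of -0.89 against IgG control (0.00 after TMM). TyrRS was then at 1.06 against input, which still passed (edgeR adjusted p = 0.00379), and at 0.92 against IgG control, under the 2-fold minimum. It remained above the median gene under each scaling. Under total-count scaling 11 of 33 synthetases were called lower and 1 higher against input, where 28.9% and 1.35% of all genes were, and 3 lower and 0 higher against IgG control, where 23.0% and 1.31% were. Signs of the other synthetases are therefore given relative to the median gene, and when total counts were used every other member was below 0, except ProRS-m at 0.04 against IgG control.

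The other 18 cytosolic enzymes lay close to the median gene, at median log2 fold changes of 0.10 against input and 0.21 against IgG control. Over all 19, TyrRS included, the median log2 fold change against input was 0.12, with 13 above 0. That of all genes tested was 0.01. Within replicates 1 to 3 the median of the 19 was -0.04, 0.29 and -0.05, so its sign differed between replicates. Without anti-FLAG IP replicate 2 the fitted median was -0.016. Against IgG control all 19 were above 0, with a median of 0.22 against 0.00 for all genes, and the within-replicate medians were 0.32, 0.46 and 0.24. In IgG control against input, 14 of the 19 were below 0, with a median of -0.23. That median was -0.07 without IgG control replicate 1.

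Among the cytosolic genes, the largest log2 fold changes against input after TyrRS were those of ArgRS, ThrRS and IleRS. ArgRS (chromosome X), which charges arginine tRNA, had 148, 168 and 145 normalised counts in anti-FLAG IP, 43.5, 109 and 108 in the IgG control and 96.2, 114 and 102 in input. All 3 anti-FLAG IP libraries were above all libraries of both controls. ArgRS had a log2 fold change of 0.58 ± 0.19 (SE) against input and 0.83 ± 0.31 against IgG control, and neither passed (edgeR adjusted p = 0.142 and 0.489). Without IgG control replicate 1 it was 0.51 against IgG control.

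ThrRS, which charges threonine tRNA, had 276, 314 and 339 normalised counts in anti-FLAG IP, 188, 214 and 269 in the IgG control and 217, 192 and 285 in input. Its anti-FLAG IP libraries were above all 3 IgG control libraries and overlapped with input replicate 3. IleRS, the isoleucine enzyme, had 416, 454 and 340 normalised counts in anti-FLAG IP, 327, 280 and 342 in the IgG control and 270, 294 and 369 in input, so that anti-FLAG IP replicate 3 fell within the controls. Against input the log2 fold changes were 0.44 ± 0.20 for ThrRS (SE, edgeR adjusted p = 0.321) and 0.39 ± 0.19 for IleRS (SE, edgeR adjusted p = 0.393).

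At the other end were GlyRS and AspRS. GlyRS, the glycine enzyme, had 93.9, 107 and 116 normalised counts in anti-FLAG IP, 95.1, 108 and 85.9 in the IgG control and 137, 151 and 171 in input. Both precipitates lay below every input library and overlapped with each other. The log2 fold change was -0.52 ± 0.19 against input (SE, edgeR adjusted p = 0.213), 0.14 ± 0.24 against IgG control (SE, edgeR adjusted p = 0.987) and -0.66 ± 0.18 for IgG control against input (SE, edgeR adjusted p = 0.664).

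AspRS, the aspartate enzyme, had 16.4, 9.06 and 20.2 normalised counts in anti-FLAG IP, 8.71, 5.21 and 21.2 in the IgG control and 22.3, 16.8 and 26.1 in input. It was low in all 3 groups, which overlapped, with a log2 fold change of -0.49 ± 0.38 against input (SE, edgeR adjusted p = 0.630). It was -0.25 without anti-FLAG IP replicate 2 and -0.77 without replicate 3. LysRS, the transcript with the highest level per length, had 191, 225 and 284 normalised counts in anti-FLAG IP, 278, 146 and 192 in the IgG control and 197, 232 and 205 in input. The groups overlapped, and the log2 fold change against input was 0.16 ± 0.19 (SE, edgeR adjusted p = 0.792). Without anti-FLAG IP replicate 3 it was -0.025, and without replicate 1 it was 0.27.

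The joined enzyme GluProRS had 171, 148 and 151 normalised counts in anti-FLAG IP, 103, 156 and 189 in the IgG control and 178, 186 and 291 in input. All anti-FLAG IP libraries were below all input libraries, and the log2 fold change was -0.46 ± 0.21 (SE, edgeR adjusted p = 0.339). Input replicate 3 was the highest library, and without it the log2 fold change was -0.20. The value against IgG control was 0.08 ± 0.25 (SE, edgeR adjusted p = 0.992), and -0.13 without IgG control replicate 1.

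Both subunits of cytosolic phenylalanyl-tRNA synthetase were measured. The alpha subunit, alpha-PheRS, had 112, 138 and 107 normalised counts in anti-FLAG IP, 84.2, 87.6 and 90.7 in the IgG control and 104, 99.0 and 130 in input. The beta subunit, beta-PheRS, had 59.5, 58.7 and 95.6 in anti-FLAG IP, 62.7, 65.2 and 61.2 in the IgG control and 84.9, 91.5 and 98.7 in input. Neither was called. The alpha subunit did not overlap with IgG control and overlapped with input, while the beta subunit overlapped with both. Their log2 fold changes against input were 0.12 ± 0.20 for alpha-PheRS and -0.35 ± 0.23 for beta-PheRS (SE, edgeR adjusted p = 0.869 and 0.565). Without anti-FLAG IP replicate 2 alpha-PheRS was at -0.016, and without replicate 3 beta-PheRS was at -0.64. The other 9 cytosolic transcripts had log2 fold changes from -0.12 (HisRS) to 0.30 (ValRS) against input and from 0.08 (AsnRS) to 0.45 (CysRS) against IgG control.

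**Figure D3:**
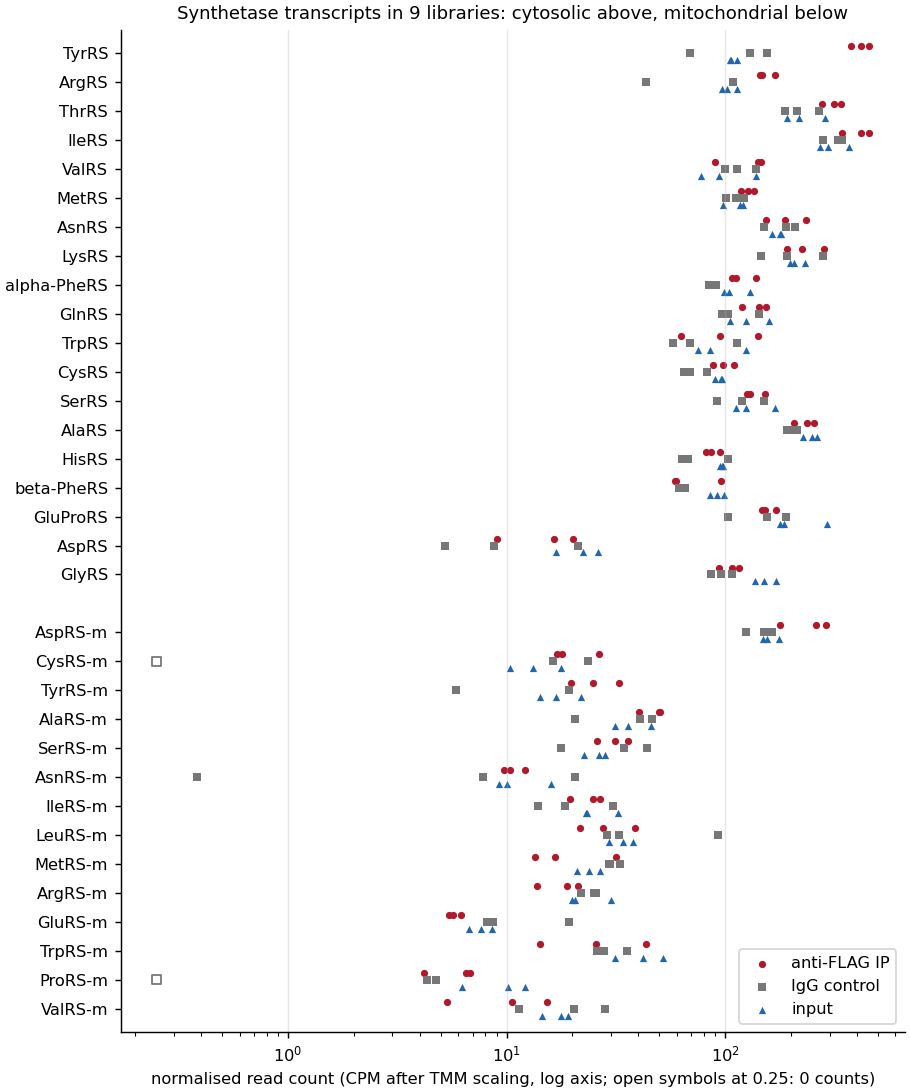
Normalised read counts (CPM after TMM scaling, log axis) of 33 synthetase transcripts in 3 anti-FLAG IP, 3 IgG control and 3 input libraries, cytosolic genes above and mitochondrial genes below, each ordered by log2 fold change against input. TyrRS stands apart at 376 to 453 in anti-FLAG IP, and the open squares mark the 0 counts of CysRS-m and ProRS-m in IgG control replicate 1.

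None of the 14 mitochondrial enzymes passed the threshold in any comparison. Their median log2 fold change was -0.16 against input, with 5 above 0, and 0.07 against IgG control, with 7 above 0. Within replicates 1 to 3 the median against input was 0.12, -0.01 and -0.34. The fitted median was -0.058 against input without input replicate 3, and -0.043 against IgG control without IgG control replicate 3. Their standard errors against input had a median of 0.35, compared with 0.20 for the cytosolic genes.

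AspRS-m, the most abundant of them, had the largest log2 fold change against input. It had 260, 290 and 178 normalised counts in anti-FLAG IP, 164, 125 and 150 in the IgG control and 155, 176 and 148 in input. The anti-FLAG IP libraries were above all libraries of both controls, with replicate 3 only just so, at 178 against 176 in input replicate 2. The log2 fold change was 0.62 ± 0.21 against input and 0.74 ± 0.24 against IgG control (SE, edgeR adjusted p = 0.159 and 0.280). With each library left out in turn, it ran from 0.46 to 0.78 against input (edgeR adjusted p from 0.00684 to 0.512). The range against IgG control was 0.60 to 0.92 (edgeR adjusted p from 0.0219 to 0.9996). All these fits stayed under the 2-fold minimum, and whether the adjusted p was under 0.05 depended on the library left out.

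TyrRS-m, the mitochondrial counterpart of TyrRS, had 19.7, 24.7 and 32.6 normalised counts in anti-FLAG IP, 19.2, 5.88 and 19.3 in the IgG control and 14.3, 21.9 and 16.8 in input. Anti-FLAG IP was higher than the same-numbered library of both controls in 3 of 3 pairs and overlapped with input. The log2 fold change was 0.56 ± 0.33 against input and 0.80 ± 0.53 against IgG control (SE, edgeR adjusted p = 0.494 and 0.866). Against input it was 0.33 without anti-FLAG IP replicate 3, and against IgG control 0.43 without IgG control replicate 2, the lowest library.

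AlaRS-m, the alanine enzyme, had 49.5, 50.1 and 40.4 normalised counts in anti-FLAG IP, 20.6, 40.6 and 46.2 in the IgG control and 31.1, 36.0 and 45.8 in input. Anti-FLAG IP replicate 3 fell within both controls, and the log2 fold change against input was 0.33 ± 0.26 (SE, edgeR adjusted p = 0.641), with 0.20 without input replicate 1 and 0.49 without input replicate 3. CysRS-m, the cysteine enzyme, had 17.9, 17.0 and 26.4 normalised counts in anti-FLAG IP, 0, 23.6 and 16.3 in the IgG control and 13.2, 17.6 and 10.4 in input. Its log2 fold change was 0.59 ± 0.37 against input (SE, edgeR adjusted p = 0.529), and 0.34 without anti-FLAG IP replicate 3. Against IgG control the value depended on the library at 0 counts, with 0.62 ± 1.44 (SE) over all libraries, 0.04 without IgG control replicate 1 and 1.34 without IgG control replicate 2.

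The lowest values against input were those of ValRS-m and ProRS-m. ValRS-m, the valine enzyme, had 15.3, 5.34 and 10.6 normalised counts in anti-FLAG IP, 20.2, 11.4 and 28.2 in the IgG control and 17.7, 14.5 and 19.0 in input. It was lower than the same-numbered control library in 3 of 3 pairs of each comparison. ValRS-m had a log2 fold change of -0.70 ± 0.45 against input and -0.93 ± 0.62 against IgG control (SE, edgeR adjusted p = 0.535 and 0.868). Without anti-FLAG IP replicate 2, its lowest library, these were -0.40 and -0.61, and without replicate 1 the value against input was -1.09. Without IgG control replicate 3 the value against IgG control was -0.60.

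ProRS-m, the proline enzyme, had 6.50, 6.79 and 4.20 normalised counts in anti-FLAG IP, 0, 4.73 and 4.34 in the IgG control and 10.1, 12.1 and 6.24 in input. All values rested on few reads, with 42 to 55 raw counts in anti-FLAG IP. The log2 fold change was -0.68 ± 0.59 against input (SE, edgeR adjusted p = 0.676). The value against IgG control was 0.95 ± 1.71 (SE), with 0.37 without the library at 0 counts and 1.44 without IgG control replicate 2.

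GluRS-m, the glutamate enzyme, is the neighbour of TyrRS on the same strand of chromosome 3L, with 171 bases between the annotated ends of the 2 genes. It had 5.44, 5.66 and 6.21 normalised counts in anti-FLAG IP, 8.65, 19.2 and 8.09 in the IgG control and 7.63, 6.69 and 8.52 in input. The anti-FLAG IP libraries were below all libraries of both controls, from 35 to 68 raw counts. GluRS-m had a log2 fold change of -0.38 ± 0.61 against input and -1.05 ± 0.90 against IgG control (SE, edgeR adjusted p = 0.852 and 0.928). IgG control replicate 2 was the highest library, and without it the value against IgG control was -0.52.

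The other 7 mitochondrial transcripts had log2 fold changes from -0.57 (TrpRS-m) to 0.29 (SerRS-m) against input and from -0.80 (LeuRS-m) to 0.18 (IleRS-m) against IgG control. In 2 of them 1 IgG control library lay far from the others. LeuRS-m had 92.2, 28.8 and 32.6 normalised counts in IgG control replicates 1 to 3, and AsnRS-m had 20.6, 0.383 and 7.79, the lowest from 8 raw counts.

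**Figure D4:**
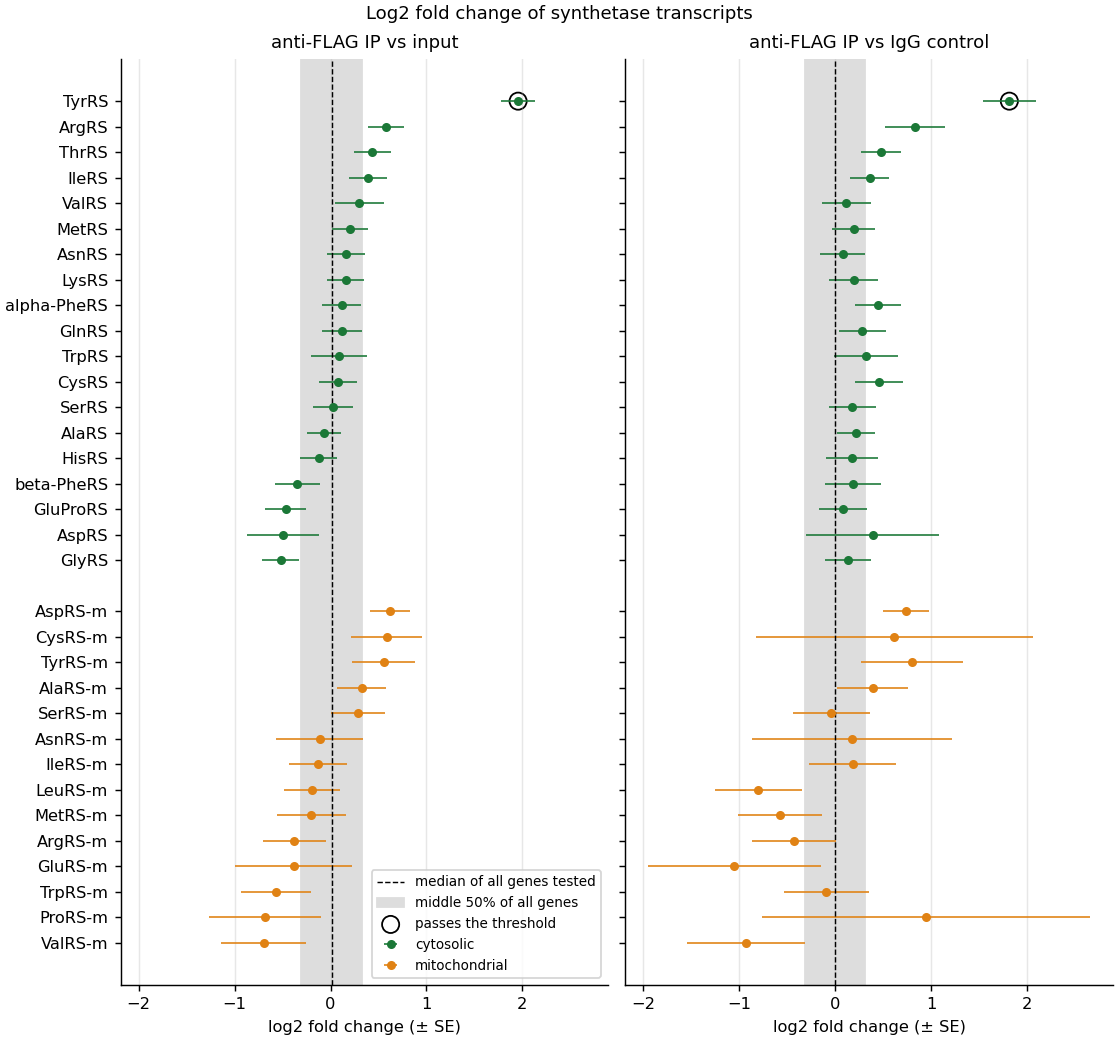
Log2 fold change (± SE) of 33 synthetase transcripts in anti-FLAG IP against input (left) and against IgG control (right), cytosolic genes in green, mitochondrial genes in orange, with the median and middle 50% of all genes tested. TyrRS, circled, is the only gene past the threshold, at 1.96 and 1.82.

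The members were also counted by less strict criteria. Against input, 6 of 33 had an unadjusted p-value under 0.05, 4 higher and 2 lower, where 14.4% of all genes did. Against IgG control there were 4, all higher, where the share of all genes was 7.56%. Anti-FLAG IP did not overlap with input in 3 higher members (TyrRS, ArgRS and AspRS-m) and 4 lower ones (GluProRS, GlyRS, HisRS and GluRS-m), against 9.33% and 11.0% of all genes. HisRS was only just without overlap, at 94.74 normalised counts in anti-FLAG IP replicate 3 and 94.75 in input replicate 1. Anti-FLAG IP did not overlap with IgG control in 7 higher members (TyrRS, ArgRS, AspRS-m, CysRS, ThrRS, TyrRS-m and alpha-PheRS) and 2 lower ones (ArgRS-m and GluRS-m), against 6.93% and 5.75% of all genes. TyrRS, ArgRS and AspRS-m were the members above both controls without overlap. Anti-FLAG IP was above the same-numbered input library in 3 of 3 pairs for 6 members and below it in 3 of 3 for 10, against 18.4% and 21.1% of all genes. For the same-numbered IgG control library these counts were 11 and 3, against 16.6% and 15.8% of all genes.

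IgG control and input were compared to read the background of the precipitation. No gene of 7594 was called with edgeR (0.0%), 460 had an unadjusted p-value under 0.05, and DESeq2 called 32 higher and 13 lower. No synthetase was called by edgeR, and 2 of 33 (GlyRS and beta-PheRS) had an unadjusted p-value under 0.05, where 6.06% of all genes did. IgG control did not overlap with input in 1 higher member (MetRS-m) and 6 lower ones (AlaRS, CysRS, GlyRS, alpha-PheRS, beta-PheRS and ProRS-m), against 5.4% and 8.44% of all genes.

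Cytosolic and mitochondrial enzymes for the same amino acid were set side by side. The cytosolic transcript had the higher log2 fold change against input for 8 of 13 amino acids, and the median difference was 0.27. Differences ran from -1.11 for aspartate to 1.40 for tyrosine. For arginine, isoleucine, tyrosine and valine the difference was positive within all 3 replicates, and for aspartate and serine it was negative within all 3. Arginine and valine were also positive within all 3 against IgG control, where isoleucine, tyrosine, aspartate and serine changed sign between replicates. Glutamate and methionine were positive and proline negative within all 3 only against IgG control. Against IgG control the cytosolic transcript was higher for 8 of 13, with a median difference of 0.22, and in IgG control against input for 5 of 13, with a median of -0.22. The tyrosine difference was 1.39, 1.82 and 1.03 within replicates 1 to 3 against input. Against IgG control it was 1.01 in the fit and 2.40, -0.45 and 0.94 within replicates, and the widest difference there was that of arginine at 1.26. No test was made of these differences, and GluProRS enters 2 of the 13 pairs.

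**Figure D5:**
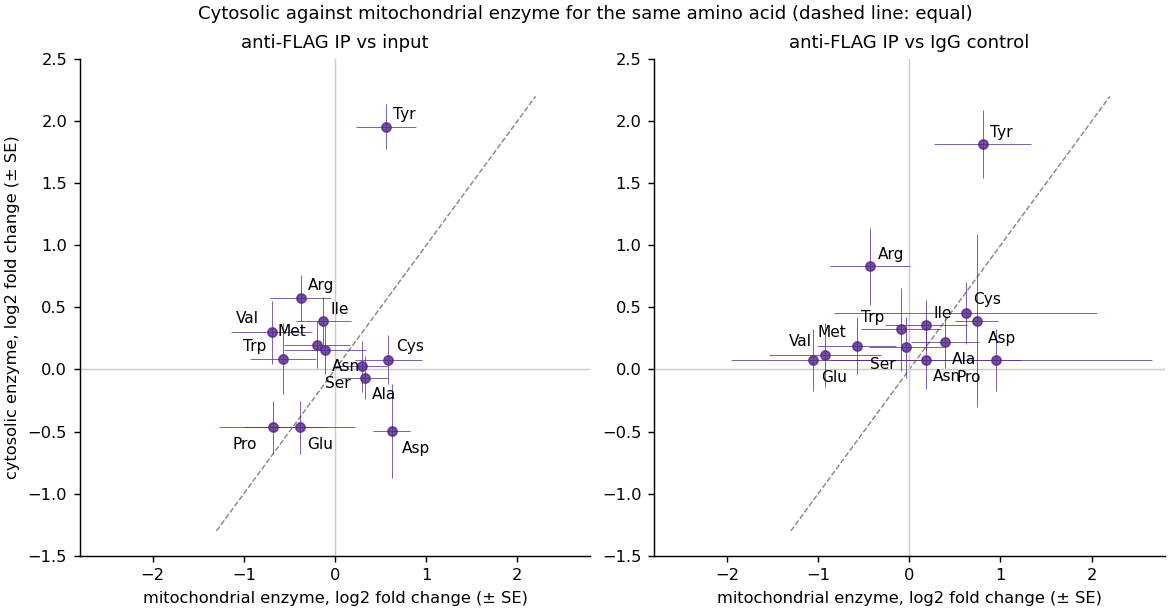
Log2 fold change (± SE) of the cytosolic enzyme against that of the mitochondrial enzyme for 13 amino acids, in anti-FLAG IP against input (left) and against IgG control (right), with a dashed line where both are equal. Tyrosine lies farthest above the line at 1.96 and 0.56 against input, and aspartate farthest below it at -0.49 and 0.62.

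Divided by catalytic fold, the log2 fold changes of class I enzymes against input had a median of 0.09 (17 genes, 10 above 0) and class II enzymes 0.02 (15 genes, 8 above 0), with GluProRS in neither. Against IgG control both medians were 0.19. Across the 33 genes the log2 fold change had a Pearson's r of -0.10 with log2 exon length against input and of -0.29 against IgG control (Spearman's rho = 0.0047 and -0.33). With log2 TPM in input the r was 0.37 against input, which shares the input libraries, and 0.42 against IgG control (rho = 0.40 and 0.32). Within the 19 cytosolic genes alone these were 0.32 and 0.07 (rho = 0.32 and 0.15). Within the 14 mitochondrial genes they were 0.48 and 0.44 (rho = 0.53 and 0.43). These values describe the genes, which are not independent replicates.

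Summed over all 33 genes, synthetases took 0.248% ± 0.040 of the counts in anti-FLAG IP, 0.356% ± 0.014 in the IgG control, with 0.390% ± 0.019 in input (SD, n = 3 each). Of the counts outside ribosomal protein genes they took 0.419% ± 0.010, 0.389% ± 0.015 and 0.430% ± 0.026 in the same order. Without TyrRS these shares outside ribosomal protein genes were 0.372% ± 0.008, 0.374% ± 0.016 and 0.415% ± 0.027 (SD, n = 3 each).

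Genes that work beside the synthetases were read from lists by symbol. AIMP1, AIMP2 and AIMP3, scaffold proteins of the multisynthetase complex, and Slimp, a paralog of SerRS-m, gave 0 of 4 called in either comparison, with log2 fold changes whose median was 0.28 against input and -0.18 against IgG control. Partners of mitochondrial charging and translation (GatA, GatB, mEFTu1 and others) gave 0 of 8 called, with medians of 0.12 and 0.14, and mitochondrial ribosomal proteins 1 of 70 and 0 of 70, with medians of -0.04 and 0.03. The amino acid response genes Gcn2, crc, Thor and eIF2alpha gave 0 of 4 called, with medians of -0.06 and 0.12. Of all genes, 1.81% were called higher against input and 1.63% against IgG control. The counts called do not set these lists apart from those shares.

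Cytosolic elongation factors, which take charged tRNA to the ribosome and move it on, contained called members. Against input, eEF1beta at 1.30 ± 0.24 and eEF1gamma at 1.64 ± 0.30 (SE, edgeR adjusted p = 0.00610 and 0.00462) were higher, 2 of 5 tested, where 1.81% of all genes were. Against IgG control 3 of 5 were, eEF2 being the third, where 1.63% of all genes were. The median of the 5 was 1.30 against input and 1.29 against IgG control, but eEF1alpha2 among them was near the floor. It had 6, 11 and 39 raw counts in anti-FLAG IP and 0, 0 and 13 in input. Its log2 fold change was 2.73 ± 1.93 against input and -0.48 ± 2.02 against IgG control (SE). The eEF1alpha1 gene could not be matched by symbol and was not analysed here. The larp transcript itself had a log2 fold change of 1.05 ± 0.56 against input (SE, edgeR adjusted p = 0.485). It was 1.08 when the replicate number was fitted as a block, which passed (edgeR adjusted p = 0.000385). Against IgG control, without the block, larp was at 0.90 ± 0.61 and did not pass (SE, edgeR adjusted p = 0.883). Its anti-FLAG IP libraries overlapped with both controls.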

How the data were processed

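The deposited lists hold raw read counts per FlyBase gene, 1 list per library, which the authors made without normalization. The submitters' processing notes name HISAT2 2.1.0, featureCounts 1.4.6 and the dm6 build. The strand setting and annotation release are not given in the sources used here. Libraries were poly(A)-selected with a directional kit and fragmented for 13 min. The paper supplied describes another experiment, so the design came from the labels. The first row of each list carries a 6-digit identifier that names no gene. It held 7.89%, 2.40% and 0.549% of the deposited counts in IgG control replicates 1 to 3. The share was 0.160% to 0.323% in anti-FLAG IP and 0.00650% to 0.0382% in input. This row was left out of totals and tests. Symbols were found for 16647 of 17023 genes, and positions and exon lengths came from BDGP6.54, Ensembl release 115.

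Each pair of groups (6 libraries) was fitted with edgeR 4.0.16 in R 4.3.3, using TMM, filterByExpr and the quasi-likelihood F test in its robust form, with Benjamini-Hochberg adjustment over all genes tested. The threshold was an adjusted p under 0.05 with at least a 2-fold change. SEs of log2 fold changes came from the F statistics. Within-replicate log2 ratios used normalised counts plus 0.5. The biological coefficient of variation was 0.395 (anti-FLAG IP, input), 0.573 (anti-FLAG IP, IgG) and 0.574 (IgG, input). The floor of 3 counts lay at 0.175 to 0.267 CPM, which covers counting error only. Same-numbered libraries, as numbered in the labels, deviated together over 6844 genes, with every correlation between 0.159 and 0.435. Between differently numbered libraries the correlations ran from -0.349 to 0.122, positive between replicates 1 and 2 and negative with replicate 3. Deviations were taken from the group mean of each gene, so they cancel out within a group. Positive same-numbered correlations therefore pull the others down, and the contrast between them is partly built in. Because same-numbered libraries deviated together, the replicate number was fitted as a block in an alternative. Adjusted p-values are from the fit without the block unless the block is named. Replicates differed by far more than sampling noise (chi-square per degree of freedom at least 31.6). On simulated counts the fit recovered 80.0% of 50 genes changed 4-fold upwards for anti-FLAG IP against input (7332 genes tested). For anti-FLAG IP against IgG control it recovered 70.0% of 50 (7188 genes tested). The simulation gave all libraries 1 gene profile apart from the changed genes, with no ribosomal protein shift and no shared deviation of same-numbered libraries. It therefore does not give the sensitivity of the fit on the real counts.

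Members and gene lists were chosen with earlier results of these data known. Values in all 9 libraries were given for members called with or without the replicate block, for the 4 highest and 2 lowest of each compartment by fold change against input, for GluProRS, both PheRS subunits, GlyRS and LysRS, and for the members of highest and lowest level in input. Scaling by total counts, by totals without ribosomal protein genes or by DESeq2 size factors, DESeq2 1.42.0, no filter on low counts, no fold minimum, all 9 libraries in 1 fit, the replicate block and leaving out each library were tried. Keeping the first row was added after the data were seen.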

Additional observations from a re-analysis of the deposited data

How the results depend on the processing

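TyrRS kept its direction in anti-FLAG IP under every alternative tried and passed under all but total-count scaling against IgG control (0.92). The call count of synthetases changed only with that scaling, to 11 lower against input, and to 0 higher and 3 lower against IgG control. It gave 2190 and 1701 lower genes in all, cytosolic medians of -0.77 and -0.67 and mitochondrial medians of -1.06 and -0.86, beside -0.87 and -0.89 for all genes. Against input, signs turned for 17 of 33 members, among those given by library for AlaRS-m (-0.57), ArgRS (-0.33), AspRS-m (-0.32), CysRS-m (-0.27), IleRS (-0.52), LysRS (-0.71), ThrRS (-0.44), TyrRS-m (-0.31) and alpha-PheRS (-0.79). Against IgG control they turned for 24 members, among them AlaRS-m (-0.52), ArgRS (-0.068), AspRS (-0.44), AspRS-m (-0.21), CysRS-m (-0.21), GluProRS (-0.81), GlyRS (-0.75), IleRS (-0.57), LysRS (-0.69), ThrRS (-0.41), TyrRS-m (-0.076), alpha-PheRS (-0.47) and beta-PheRS (-0.67). None of these had been called, and the scaling moves all genes of a library by the same factor. Totals without ribosomal protein genes gave 145 and 14 lower genes, cytosolic medians of -0.17 and -0.063, mitochondrial medians of -0.44 and -0.23, and all-gene medians of -0.27 and -0.28. Signs then turned for 8 members against input, among those given by library for LysRS (-0.13) and alpha-PheRS (-0.17), and for 12 against IgG control, among them GluProRS (-0.19), GlyRS (-0.14), LysRS (-0.10) and beta-PheRS (-0.094) against IgG control. With the replicate block TyrRS was at 1.95 (edgeR adjusted p = 8.78e-07) and 1.89 (edgeR adjusted p = 6.22e-05), no other synthetase was called, and lower genes numbered 76 against input (19 without it) and 5 against IgG control (1 without it), with 6 higher and 2 lower in IgG control against input. Lower genes numbered 51 and 16 with DESeq2, 56 and 14 with no filter, and 29 against input with no fold minimum. Against IgG control there were 2 with DESeq2 size factors and 2 with all 9 libraries in 1 fit. In IgG control against input, DESeq2 gave 32 higher and 13 lower genes, no filter 1 higher and all 9 libraries 1 higher. The cause of these differences between tools was not tested. Leaving out 1 library gave 117 to 213 higher and 7 to 145 lower genes against input, 0 to 21 lower against IgG control and 0 to 1 higher in IgG control against input. The most came without anti-FLAG IP replicate 3. Medians ran from -0.016 to 0.19 (cytosolic) and -0.21 to -0.058 (mitochondrial) against input, from 0.20 to 0.36 and -0.043 to 0.22 against IgG control, and from -0.34 to -0.075 and -0.15 to 0.080 in IgG control against input. Signs turned for LysRS (-0.025 to 0.27) and alpha-PheRS (-0.016 to 0.24) against input, for GluProRS (-0.13 to 0.28) and beta-PheRS (-0.083 to 0.31) against IgG control, and in IgG control against input for AlaRS-m (-0.29 to 0.20), ArgRS (-0.45 to 0.058), CysRS-m (-0.74 to 0.54), IleRS (-0.063 to 0.17), LysRS (-0.33 to 0.16), ThrRS (-0.20 to 0.13), TyrRS (-0.11 to 0.40), TyrRS-m (-0.49 to 0.14) and ValRS-m (-0.10 to 0.51).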
